A study of Mus musculus with 6 samples.

Results

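Flavin-containing monooxygenases are enzymes of the endoplasmic reticulum that hold a flavin adenine dinucleotide (FAD), reduce it with NADPH and use oxygen to oxidise soft nucleophiles, mostly nitrogen and sulfur atoms of drugs, food compounds and metabolites. The liver is one of the main sites of this chemistry. Fmo1 oxidises many amines and sulfur compounds, including hypotaurine. Fmo2 is best known as the lung enzyme, Fmo4 is a little studied member of low abundance, and Fmo5 has an unusual preference for inserting oxygen next to carbonyl groups. Described here are the 4 genes Fmo1, Fmo2, Fmo4 and Fmo5, found by their symbols among 24489 gene entries of a liver RNA sequencing table. They were chosen for their difference between the genotypes in these same libraries, so their genotype difference is given as a description, with a standard error and no test.

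Polyadenylated RNA came from 1 liver lobe of untreated mouse pups at postnatal day 10, on a C3H/C57bl6J background shared by both groups. The 3 Jag1+/+ libraries carry the normal alleles and the 3 Jag1Ndr/Ndr libraries are homozygous for the Nodder (Ndr) allele of Jag1, a missense allele of a Notch ligand, carried throughout the body and used as a mouse model of Alagille syndrome, in which bile ducts are scarce. Jag1 transcripts were at 5.96 ± 0.807 CPM (counts scaled to a common library size) in the normal livers and at 4.84 ± 1.59 CPM in the mutant livers (SD, n = 3 each), and since the allele changes the protein, this level does not check the labels. The labels do not say that each library is a separate animal, although each genotype held libraries of both sexes and so more than 1 animal. The p-values therefore measure only the spread between these samples, which may be partly technical.

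Libraries held 12992592 to 59653111 reads. Albumin took 16.9% to 17.3% of the reads in Jag1+/+ and 10.3% to 13.0% in Jag1Ndr/Ndr. Reads of Xist and of Y-linked genes showed 1 female and 2 male libraries in Jag1+/+ (replicate 1 female), and 1 male and 2 female libraries in Jag1Ndr/Ndr (replicate 1 male). Of 13819 genes tested, 4.73% were higher and 2.90% lower in Jag1Ndr/Ndr (edgeR's quasi-likelihood F test, Benjamini-Hochberg adjusted, adjusted p under 0.05), and 14.2% had all 3 Jag1Ndr/Ndr libraries below all 3 Jag1+/+ libraries. Of the genes past the threshold 62.0% were higher, and 74.3% with library totals alone in place of the TMM scaling, which moved the median log2 fold change of all genes from 0.004 to 0.128.

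Fmo4, Fmo1 and Fmo2 lie side by side on the minus strand of chromosome 1, at chr1:162793188-162813972, chr1:162829561-162866610 and chr1:162874317-162898726 (GRCm38, GENCODE M21). The gap between Fmo4 and Fmo1 is 15.6 kb and that between Fmo1 and Fmo2 is 7.71 kb, and the 3 genes together span 105.5 kb. Fmo5 lies apart, on the plus strand at chr3:97628804-97655282. Each gene has 9 exons in the transcript used here. The 4 coding sequences are related but far from identical, with 58.4% to 61.5% of aligned bases shared between any pair. The stretch printed for Fmo2, Fmo4 and Fmo5 encodes the glycine-rich motif that binds FAD and lies in exon 2 of each of these genes, and it is shown because even in this conserved part the letters tell the transcripts apart. Capitals mark the 56 of 90 bases that are identical in these 3 genes, and each line runs 5′ to 3′ on the coding strand.
Fmo2: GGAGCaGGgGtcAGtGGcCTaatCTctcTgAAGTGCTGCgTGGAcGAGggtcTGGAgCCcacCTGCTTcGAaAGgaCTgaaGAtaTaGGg
Fmo4: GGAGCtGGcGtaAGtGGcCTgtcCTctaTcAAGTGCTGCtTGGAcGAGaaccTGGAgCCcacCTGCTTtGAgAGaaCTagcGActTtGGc
Fmo5: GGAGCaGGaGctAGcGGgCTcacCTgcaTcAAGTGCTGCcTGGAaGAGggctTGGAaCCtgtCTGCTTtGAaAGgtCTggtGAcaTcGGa
These stretches lie at chr1:162898192-162898281 (Fmo2), chr1:162809808-162809897 (Fmo4) and chr3:97629088-97629177 (Fmo5). The longest run of bases shared by any pair of the 4 coding sequences was 24, between Fmo1 and Fmo5. No stretch of 50 bases in the transcripts of Fmo1, Fmo2 or Fmo4 occurs in a transcript of another gene, and 25 of the 5148 such stretches in Fmo5 do (0.486%).

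In CPM, transcripts of 3 of the 4 genes were lower in every Jag1Ndr/Ndr library than in any Jag1+/+ library, and those of Fmo5 were not. Fmo2 had the largest fitted difference, 3.90-fold lower, followed by Fmo1, 2.18-fold lower, and Fmo4, 1.41-fold lower. The share of all genes with this separation is the 14.2% given above, and nothing is read from the comparison because the genes were selected on this contrast. In whole tissue, fewer cells of a type and less RNA per cell cannot be told apart.

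Fmo1, the broad amine and sulfur oxidase, was at 306, 276 and 300 CPM in Jag1+/+ replicates 1, 2 and 3, from 5283, 8514 and 11619 reads. In Jag1Ndr/Ndr replicates 1, 2 and 3 it was at 121, 147 and 136 CPM, from 1370, 10483 and 2541 reads. The highest Jag1Ndr/Ndr library lay far below the lowest Jag1+/+ library, and the libraries of each genotype sat close together. The means were 294 ± 15.7 CPM and 135 ± 12.8 CPM (SD, n = 3 each), and the fitted log2 fold change was -1.13 ± 0.16 (SE), which is 54.2% lower. It was the member whose value depended least on which library was left out, with a log2 fold change from -1.19 to -1.07.

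Fmo2, the enzyme best known from lung, was at 17.8, 27.8 and 37.7 CPM in Jag1+/+ replicates 1, 2 and 3, from 308, 857 and 1460 reads. In Jag1Ndr/Ndr replicates 1, 2 and 3 it was at 4.43, 6.31 and 10.6 CPM, from 50, 450 and 198 reads. Fmo2 therefore varied more within each genotype than Fmo1 did, yet the highest Jag1Ndr/Ndr library still lay below the lowest Jag1+/+ library. The means were 27.8 ± 9.94 and 7.10 ± 3.14 CPM (SD, n = 3 each), with a log2 fold change of -1.96 ± 0.36 (SE). Replicate 1 was the lowest and replicate 3 the highest library in both genotypes, although the numbers do not mark a shared animal or batch in the labels. Without Jag1Ndr/Ndr replicate 3 the log2 fold change was -2.35, and without Jag1+/+ replicate 3 it was -1.69.

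Fmo4, the little studied member, was at 13.8, 13.1 and 14.4 CPM in Jag1+/+ replicates 1, 2 and 3, from 239, 404 and 558 reads. In Jag1Ndr/Ndr replicates 1, 2 and 3 it was at 7.36, 10.3 and 11.6 CPM, from 83, 736 and 217 reads. The genotypes did not overlap, but the gap between them was small and Jag1Ndr/Ndr replicate 1 stood lower than the other two. The means were 13.8 ± 0.654 and 9.75 ± 2.17 CPM (SD, n = 3 each), with a log2 fold change of -0.49 ± 0.20 (SE). On the deposited RPKM scale (reads scaled by transcript length and library size) the genotypes overlapped for Fmo4, at 6.86 to 7.52 RPKM in Jag1+/+ and 2.94 to 9.004 RPKM in Jag1Ndr/Ndr, and limma on these values gave -0.28 or -0.22 with pseudocounts of 0.1 or 1. These RPKM hold a scaling factor for each library. With it divided out they still overlapped slightly, at 7.23 RPKM in Jag1Ndr/Ndr replicate 3 and 7.21 RPKM in Jag1+/+ replicate 2. In counts scaled by library totals alone they did not.

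Fmo5, the carbonyl-directed member, was at 237, 210 and 319 CPM in Jag1+/+ replicates 1, 2 and 3, from 4101, 6455 and 12357 reads. In Jag1Ndr/Ndr replicates 1, 2 and 3 it was at 286, 243 and 304 CPM, from 3225, 17333 and 5699 reads. The genotypes overlapped, because Jag1+/+ replicate 3 was the highest of all 6 libraries. The means were 255 ± 57.0 and 278 ± 31.2 CPM (SD, n = 3 each), and the log2 fold change of 0.12 ± 0.21 was smaller than its standard error. Without Jag1+/+ replicate 3 the remaining libraries did not overlap and the value was 0.31, and without Jag1+/+ replicate 2 it was -0.01.

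**Figure D1:**
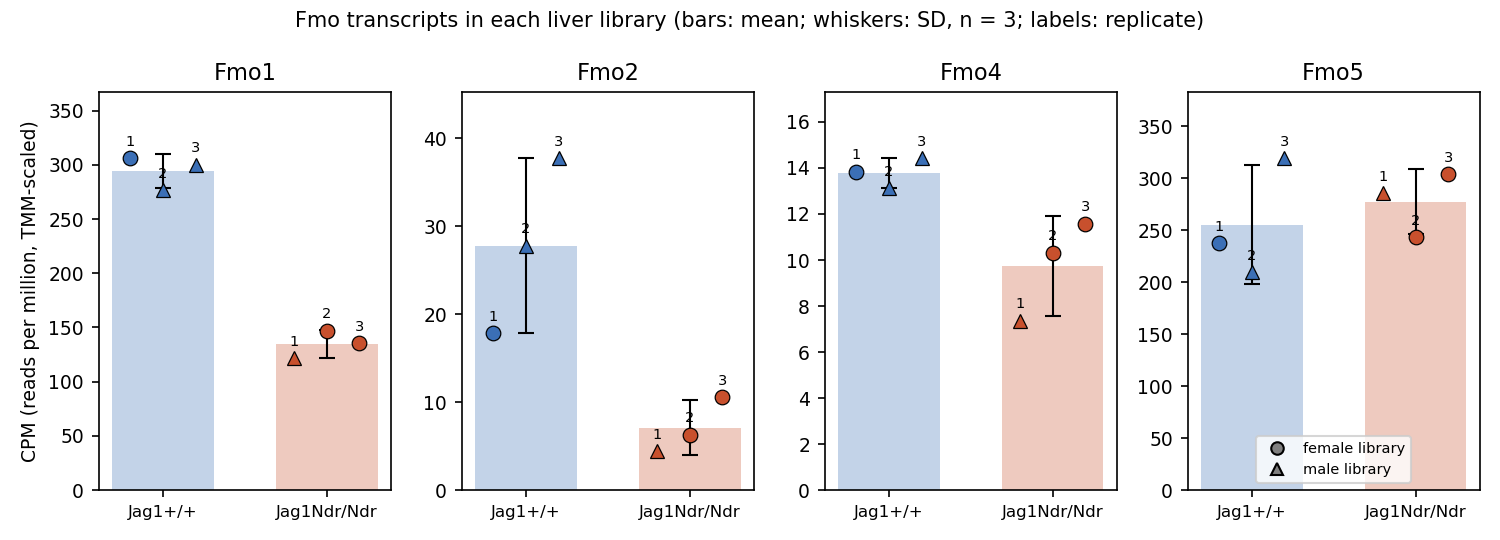
CPM of Fmo1, Fmo2, Fmo4 and Fmo5 (y axis, reads scaled by TMM, a scale of its own in each panel starting at 0) in the 3 Jag1+/+ and 3 Jag1Ndr/Ndr libraries. Points are libraries, numbered by replicate and shaped by sex, bars are means and whiskers SD (n = 3). The Jag1Ndr/Ndr points lie below all Jag1+/+ points for Fmo1, Fmo2 and Fmo4 and among them for Fmo5.

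The sex of the libraries was not used to choose the genes and could be tested beside genotype, a test chosen after the data were seen. Male minus female log2 differences were -0.13 ± 0.17 for Fmo1, 0.09 ± 0.46 for Fmo2, -0.26 ± 0.21 for Fmo4 and 0.13 ± 0.23 for Fmo5 (SE). None passed the threshold, with adjusted p from 0.930 to 0.979 (edgeR's quasi-likelihood F test, Benjamini-Hochberg adjusted, 14096 genes). Only 5 of these 14096 genes (0.0355%) passed it and 416 had an unadjusted p under 0.05, so that a sex difference of the Fmo genes was not detectable with these 6 libraries, which does not show that there is none. With sex as a covariate the genotype difference was -1.18 for Fmo1, -1.92 for Fmo2, -0.61 for Fmo4 and 0.16 for Fmo5.

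Levels of different genes can be compared only per length, so the order of the 4 members is given on the deposited RPKM scale. In Jag1+/+ livers Fmo1 was the highest member at 118.6 ± 6.85 RPKM (SD, n = 3), ranking 389th among the 13819 genes tested. Fmo5 followed at 46.0 ± 10.2 RPKM, then Fmo2 at 7.80 ± 2.74 RPKM and Fmo4 at 7.23 ± 0.339 RPKM. The ranges of Fmo1, Fmo5 and the lower pair did not overlap, while those of Fmo2 and Fmo4 did. In Jag1Ndr/Ndr livers Fmo1 was at 69.1 ± 30.7 RPKM and Fmo5 at 61.2 ± 19.0 RPKM, with overlapping ranges, so that the leading member was no longer separate. Fmo4 at 6.63 ± 3.24 RPKM and Fmo2 at 2.59 ± 1.499 RPKM followed, also with overlapping ranges. With the header factor divided out, Fmo1 at 46.8 to 77.2 RPKM and Fmo5 at 49.3 to 65.1 RPKM still overlapped in Jag1Ndr/Ndr. On these values Fmo4 lay above Fmo2 in all 3 Jag1Ndr/Ndr libraries without overlap.

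The deposited RPKM are multiplied by a scaling factor for each library, whereas the CPM are divided by edgeR's TMM factor. Both factors were lowest in Jag1Ndr/Ndr replicate 1 (0.7957 and 0.8686) and highest in Jag1Ndr/Ndr replicate 2 (1.276 and 1.1955). The RPKM thus scale these libraries in the opposite direction to the CPM, and are not an equivalent scale between libraries. On the RPKM scale the spread of Fmo1 was wider. Its Jag1Ndr/Ndr libraries were at 37.2, 98.5 and 71.4 RPKM, a coefficient of variation of 44.5%, against 9.54% for the same libraries in CPM. Among Jag1+/+ libraries the coefficient was 5.77% in RPKM and 5.34% in CPM.

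Ratios of members within a library are free of any scaling between libraries. Per length, Fmo1 exceeded Fmo5 by 2.88, 2.95 and 2.10 times in Jag1+/+ replicates 1, 2 and 3. In Jag1Ndr/Ndr replicates 1, 2 and 3 this RPKM ratio was 0.949, 1.35 and 0.999, so Fmo1 and Fmo5 stood at about the same level, and the genotypes did not overlap. Fmo1 made up 61.5% to 69.1% of the summed RPKM of the 4 members in Jag1+/+ and 46.2% to 53.7% in Jag1Ndr/Ndr. Fmo5 made up 23.0% to 29.3% and 39.8% to 48.8%, respectively. For the 2 scarce members, the RPKM ratio of Fmo2 to Fmo4 was 0.690, 1.14 and 1.40 in Jag1+/+ and 0.323, 0.328 and 0.489 in Jag1Ndr/Ndr, again without overlap. Each of these ratios is made from values that chose the genes, so they describe the shift and test nothing.

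**Figure D2:**
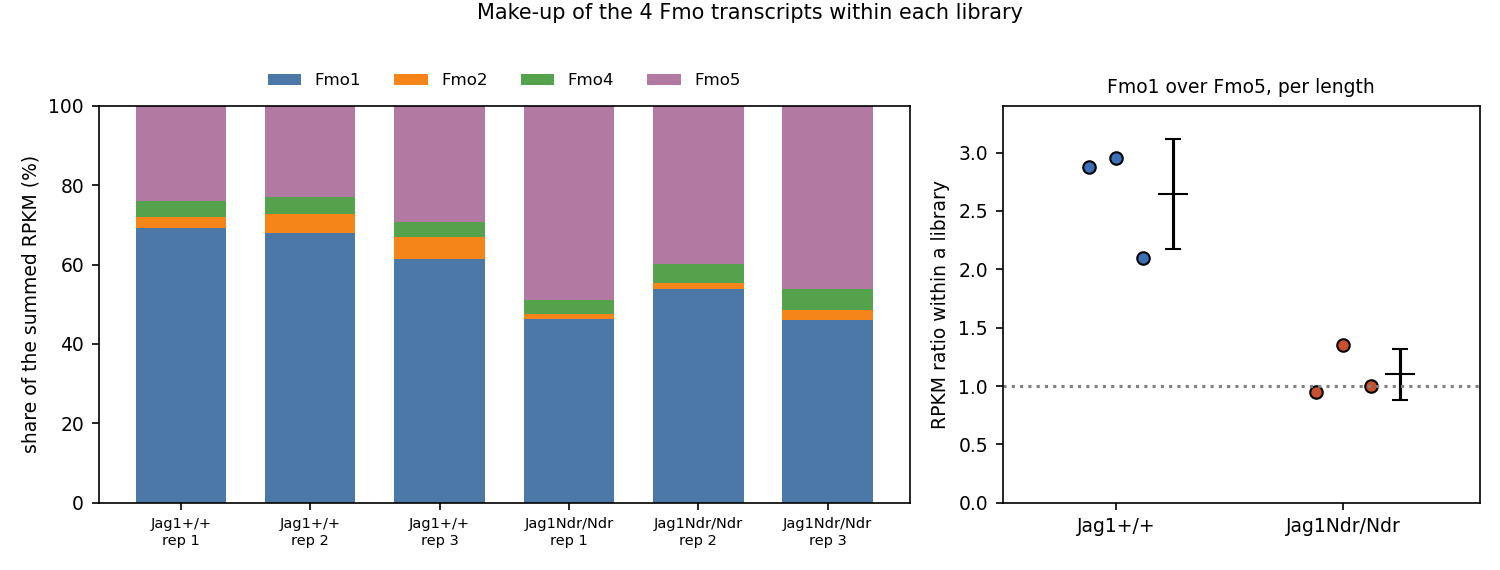
Left, share of each member in the summed RPKM of the 4 Fmo genes (y axis, percent) in each library. Right, RPKM ratio of Fmo1 to Fmo5 in each library (points) with mean and SD (n = 3), the dotted line marking equal levels. Fmo1 takes 61.5% to 69.1% in the Jag1+/+ libraries and 46.2% to 53.7% in Jag1Ndr/Ndr, where the ratio sits near 1.

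The direction of the genotype difference was the same for Fmo1, Fmo2 and Fmo4 under all 14 other ways of processing tried. Over these the log2 fold change ran from -1.19 to -0.88 for Fmo1, from -2.35 to -1.34 for Fmo2 and from -0.63 to -0.22 for Fmo4. That of Fmo5 ran from -0.01 to 0.38. The values nearest to 0 for the first 3 genes, and the highest for Fmo5, came from the deposited RPKM, on which the median of all genes was itself shifted to 0.22 or 0.18, depending on the pseudocount. Since these RPKM are multiplied by the library factor and the CPM divided by theirs, the limma values are not an equivalent check of the CPM.

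**Figure D3:**
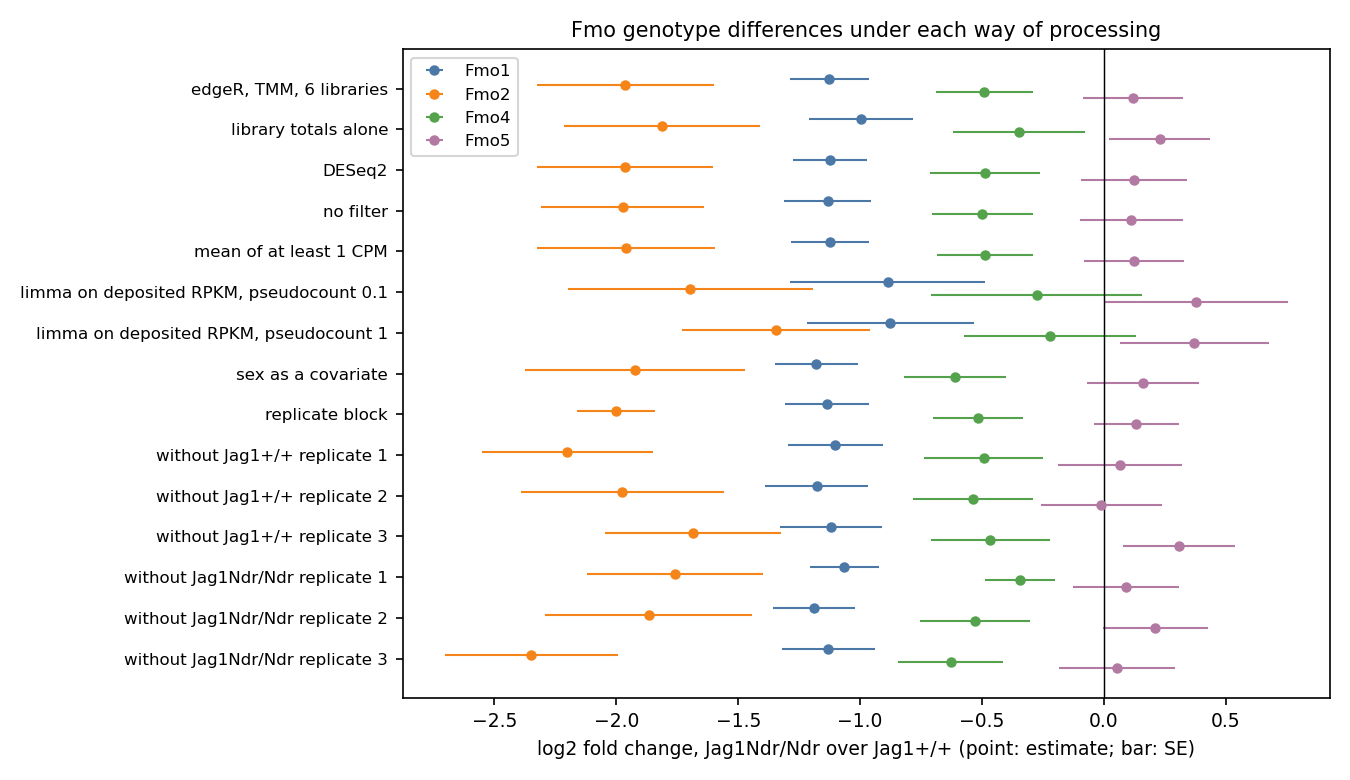
Log2 fold change of each member (x axis, Jag1Ndr/Ndr over Jag1+/+) under each way of processing (y axis). Points are estimates and bars standard errors. Fmo1, Fmo2 and Fmo4 stay left of 0 throughout, and Fmo5 lies between -0.01 and 0.38.

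The nearest tested genes outside the family were examined, since position was not used to choose the members. They were Prrc2c, Vamp4, Prrx1 and Gorab around the chromosome 1 cluster and Bcl9, Acp6, Prkab2, Pde4dip and the overlapping Chd1l around Fmo5. None of the 9 passed the threshold, with adjusted p from 0.446 to 0.967 (edgeR's quasi-likelihood F test, Benjamini-Hochberg adjusted), none had an unadjusted p under 0.05 and none was called by DESeq2. Their log2 fold changes lay between -0.27 and 0.41. Prrc2c, the nearest tested gene on the Fmo4 side at 52.6 kb, was at 57.7 ± 10.5 CPM in the normal and 52.0 ± 22.3 CPM in the mutant livers (SD, n = 3 each). Prkab2, a subunit of the energy sensor AMPK and 2.92 kb beyond Fmo5, was at 3.18 ± 0.429 and 4.04 ± 1.28 CPM. Chd1l, which encodes a chromatin remodeller and overlaps Fmo5 in RefSeq, was at 14.4 ± 0.681 and 14.7 ± 0.969 CPM. The library kit does not mark strand, so reads in a stretch shared by Chd1l and Fmo5 cannot be told apart.

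Promoter windows, 250 bases before to 50 bases after a RefSeq transcript start (GRCm38.p6), were at hand for Fmo2, Fmo4 and Fmo5. The nuclear receptor motif AGGTCA occurred on either strand in the Fmo4 window, 75 to 70 bases before the start, and in 1 of the Fmo2 windows, 9 to 4 bases before the start, and it was in 16.3% of all 32851 windows. CAAAGTCCA (0.475% of windows), GCGTG (32.4%), TGACNNNGC (12.4%) and the HNF1 motif (0.00913%) were not in these windows. The transcript starts of the Fmo4 and Fmo5 windows, and of the Fmo2 window with the match, lay inside the gene spans given above. The Fmo4 window (chr1:162812500-162812799) lay wholly inside that gene. Both AGGTCA matches therefore lay within the gene spans, before internal starts. Such a match is a string of letters and not a binding site.

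The members were compared with all 12765 other genes of at least 1 CPM by the mean distance between their centred log2 CPM profiles over the 6 libraries. For Fmo1, Hsd3b3, a steroid dehydrogenase, was among the 3 closest, at 0.07 log2 units. Those closest to Fmo2 were farther off, with Mmd2 at 0.13, Fam19a5 at 0.21 and Esr1, the estrogen receptor alpha gene, at 0.22. For Fmo4 they were Nr1h4, which encodes the bile acid receptor FXR, Zfp128 and Prkag2 at 0.04, 0.05 and 0.05. Slc30a9, Cerk and Tmed5 came closest to Fmo5, at 0.06, 0.07 and 0.07. Between members, the profiles of Fmo1 and Fmo4 were closest (0.30) and those of Fmo2 and Fmo5 farthest apart (1.06). All of these profiles hold the genotype difference on which the members were selected. The distances therefore largely restate the fold changes and test nothing, and shared regulation with the genes named was not tested.

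Around the family, 10 lists held 96 tested genes, of which 7 were higher (7.29%) and 11 lower (11.5%) in Jag1Ndr/Ndr, beside 4.73% and 2.90% of all genes. Their median log2 fold change was -0.15, against 0.004 for all genes tested. The lists were chosen with earlier results of these data known, so these shares describe the lists and support nothing. Adjusted p-values below are from edgeR's quasi-likelihood F test, Benjamini-Hochberg adjusted over all genes tested.

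For the cofactors, 2 of 12 genes of FAD and NADPH supply rose and none fell (3 higher and 2 lower at an unadjusted p under 0.05, as by DESeq2). G6pdx, which makes NADPH in the pentose phosphate pathway, rose from 16.0 ± 1.82 to 31.9 ± 10.0 CPM (edgeR with Benjamini-Hochberg, adjusted p = 0.0360), and Pgd, the next NADPH-producing enzyme, from 53.8 ± 6.29 to 97.9 ± 8.99 CPM (adjusted p = 0.0149). Rfk, the riboflavin kinase that makes FMN from riboflavin, was at 69.3 ± 3.69 and 47.8 ± 6.68 CPM and did not pass (adjusted p = 0.0726 by the same edgeR test), but passed as lower with DESeq2 and with the replicate block. Slc52a2, a riboflavin transporter, was at 6.45 ± 0.280 and 11.6 ± 3.54 CPM and did not pass either (adjusted p = 0.0711 by the same edgeR test), but passed as higher with DESeq2 and with library totals alone.

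Among 6 other flavin monooxygenases 1 rose and none fell (none at an unadjusted p under 0.05, none by DESeq2). This was Sqle, squalene epoxidase of cholesterol synthesis, which went from 9.24 ± 5.75 to 123 ± 28.4 CPM, 13.3-fold higher (edgeR with Benjamini-Hochberg, adjusted p = 0.00435), and 20.1-fold higher without Jag1+/+ replicate 2. Its log2 fold change was 3.74 and ran from 3.36 to 4.33 over the alternatives. Of 10 other amine and thioether oxidases 1 fell, Maob, which breaks down monoamines at the mitochondrion, from 339 ± 41.2 to 136 ± 12.1 CPM (edgeR with Benjamini-Hochberg, adjusted p = 0.00565), and none rose (2 at an unadjusted p under 0.05, none by DESeq2). Nqo2, a quinone reductase, was at 113 ± 9.32 and 67.0 ± 16.6 CPM and did not pass (adjusted p = 0.0575 by the same edgeR test), but passed as lower with DESeq2, with no filter, with the replicate block and without Jag1Ndr/Ndr replicate 3.

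For the membrane where Fmo proteins sit, a list of 6 genes of microsomal electron transfer and other microsomal proteins was examined. In it 1 rose and 1 fell, and neither is an electron carrier. Ephx1, the microsomal epoxide hydrolase, went from 97.3 ± 22.2 to 227 ± 28.7 CPM, while Hsd11b1, which regenerates glucocorticoids, went from 481 ± 33.7 to 146 ± 54.3 CPM (edgeR with Benjamini-Hochberg, adjusted p = 0.0125 and 0.00998). The other 4 did not pass, among them the electron transfer genes Cyb5a and Cyb5r3 (adjusted p = 0.141 and 0.261 by the same edgeR test). Of 9 genes that reduce N-oxides and sulfoxides 1 rose, Txnrd1, a thioredoxin reductase, from 69.6 ± 6.48 to 116 ± 6.48 CPM (edgeR with Benjamini-Hochberg, adjusted p = 0.0225), and none fell (1 at an unadjusted p under 0.05, 1 by DESeq2).

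On the substrate side, none of 10 choline and methylamine genes passed edgeR's test (3 lower and none higher at an unadjusted p under 0.05, and 2 lower by DESeq2), and their median log2 fold change was -0.31. Of 10 sulfur metabolism genes 1 rose, Ggt1, which cleaves glutathione outside cells, from a low 0.181 ± 0.0509 to 1.22 ± 0.672 CPM (edgeR with Benjamini-Hochberg, adjusted p = 0.0262), and none fell (1 at an unadjusted p under 0.05, 1 by DESeq2).

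Of 15 tested candidate regulators of Fmo genes 2 fell and none rose (1 at an unadjusted p under 0.05, 1 by DESeq2). Esr1 fell from 23.3 ± 7.39 to 6.76 ± 2.86 CPM and Ppara, a fatty acid receptor, from 343 ± 66.4 to 133 ± 52.3 CPM (edgeR with Benjamini-Hochberg, adjusted p = 0.0232 and 0.0349). Foxa2 and Ahr, a liver transcription factor and the dioxin receptor, did not pass, with adjusted p of 0.0545 and 0.0637 by the same edgeR test. Both passed as lower with DESeq2, with no filter and with the replicate number as a block, and Ahr also without Jag1Ndr/Ndr replicate 1 or 3. The number of regulators that were lower ran from 0 to 5 over the alternatives, with 5 by DESeq2 and 0 without any 1 of the Jag1+/+ libraries. Of 4 tested targets of the dioxin receptor, Cyp1a2, a drug-oxidising cytochrome P450, fell 11.2-fold, from 352 ± 91.5 to 31.5 ± 4.68 CPM, and Cyp1b1 rose from a low 0.239 ± 0.0169 to 1.11 ± 0.580 CPM (edgeR with Benjamini-Hochberg, adjusted p = 0.000818 and 0.0374).

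Several Fmo genes are known to differ between the sexes in adult mouse liver, and of 15 tested sex-biased liver genes and their growth hormone signalling partners 6 fell and none rose (3 at an unadjusted p under 0.05, 2 by DESeq2). Sult2a1, a steroid sulfotransferase, fell from 219 ± 56.0 to 23.9 ± 7.60 CPM (edgeR with Benjamini-Hochberg, adjusted p = 0.00227). Ghr, the growth hormone receptor, fell from 392 ± 32.9 to 117 ± 38.5 CPM (edgeR with Benjamini-Hochberg, adjusted p = 0.00766). Cyp2b9, A1bg, Stat5b and Cyp2b13 also fell, by 2.91-fold, 26.3-fold, 1.72-fold and 4.34-fold. A1bg was at only 0.0956 CPM in Jag1Ndr/Ndr, and reads of Cyp2b9 and Cyp2b13 can be hard to assign because the genes have near copies. Without Jag1Ndr/Ndr replicate 1, Cyp2b13 was 7.68-fold lower, and its log2 fold change ran from -2.94 to -1.68 over the alternatives. With sex as a covariate the calls of Esr1, Ppara, Cyp2b13, Stat5b and G6pdx were lost, at log2 fold changes of -1.89, -1.52, -2.11, -0.76 and 0.86, beside -1.76, -1.37, -2.12, -0.78 and 1.01 without it.

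Calls of Sqle, Hsd11b1, Cyp1a2 and Sult2a1 held under all 14 alternatives. The calls of G6pdx, Pgd, Txnrd1, Ggt1, Esr1, Ppara, Cyp1b1, Cyp2b13 and Stat5b were lost when any 1 of the 3 Jag1+/+ libraries was left out, and that of Ephx1 without Jag1+/+ replicate 2 or 3. Those of Ggt1, Ppara, Cyp1b1, Cyp2b13 and Stat5b were also lost without Jag1Ndr/Ndr replicate 3, and that of Cyp2b13 without Jag1Ndr/Ndr replicate 2. With limma on the deposited RPKM, G6pdx, Pgd, Maob, Ephx1, Txnrd1, Esr1, Ppara, Cyp1b1, Cyp2b9, Ghr and Stat5b passed at neither pseudocount, and Ggt1 and A1bg did not pass at a pseudocount of 1. Library totals alone ended the calls of G6pdx, Esr1, Ppara and Stat5b.

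**Figure D4:**
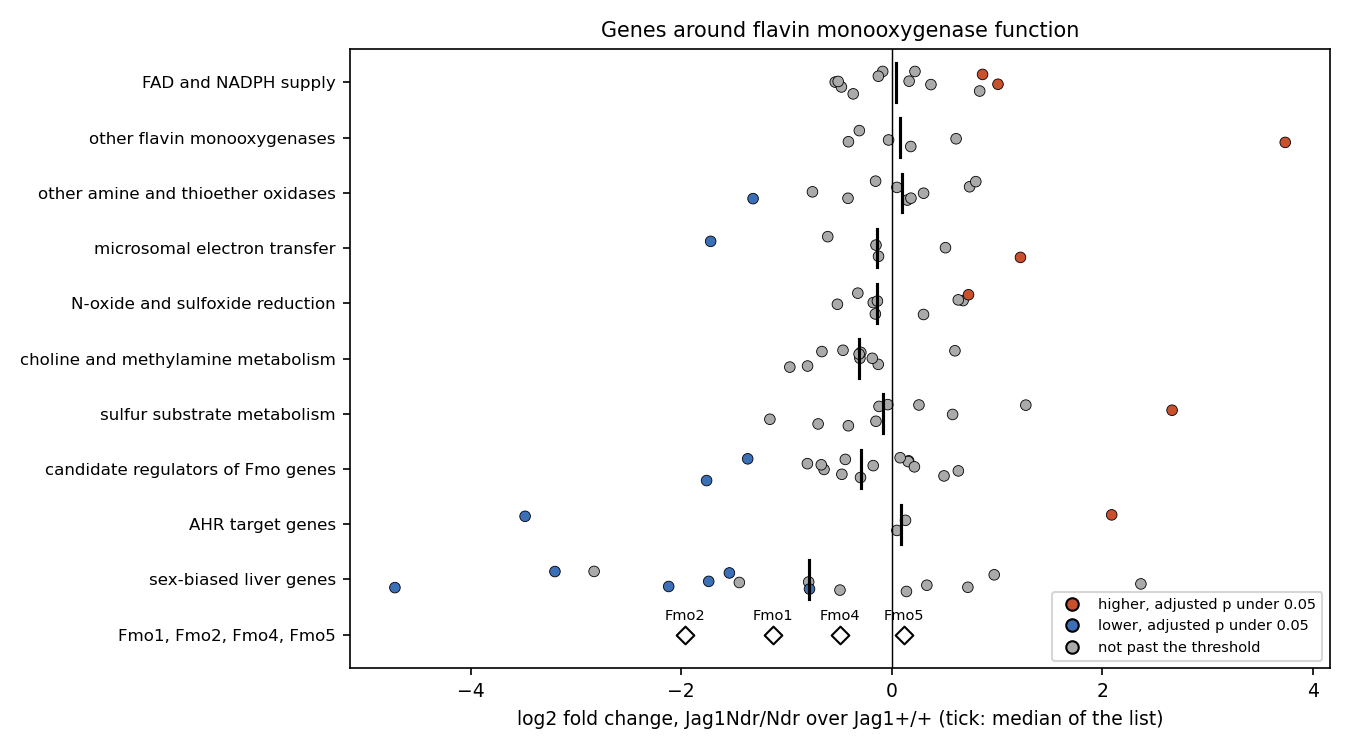
Log2 fold change (x axis, Jag1Ndr/Ndr over Jag1+/+) of each tested gene of the 10 lists (y axis), with a tick at the median of a list. Red and blue points passed the threshold as higher or lower, grey ones did not, and the open diamonds give the 4 Fmo genes, which were selected on this contrast.

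The labelled tissue showed its hepatocyte markers in every library, with a summed level of 217729 to 223906 CPM in Jag1+/+ and 103767 to 184261 CPM in Jag1Ndr/Ndr. This sum is mostly albumin, at 177696 ± 2203 and 112765 ± 33219 CPM (SD, n = 3 each), and it was lower without overlap, as Fmo1, Fmo2 and Fmo4 were. The median log2 fold change of the 8 markers was -0.47, and 3 were lower and 0 higher at an unadjusted p under 0.05. Ttr passed the threshold as lower. Apoa1 was at 19643 ± 2690 and 11428 ± 6276 CPM and Serpina1c at 1094 ± 59.9 and 563 ± 187 CPM, and neither passed. Only Hnf4a and Tat had a higher mean in Jag1Ndr/Ndr, Hnf4a at 425 ± 68.5 and 449 ± 59.3 CPM and Tat at 319 ± 28.8 and 618 ± 504 CPM. The count of hepatocyte markers that were lower was 3 with DESeq2 and with library totals, 4 without Jag1Ndr/Ndr replicate 1, and 0 without any 1 of the Jag1+/+ libraries or without Jag1Ndr/Ndr replicate 3. Neutrophil markers summed to 509 to 645 CPM in Jag1+/+ and 919.5 to 1979 CPM in Jag1Ndr/Ndr (4 of 6 higher), and macrophage markers to 593 to 1043 and 1297 to 2223 CPM (1 of 7 higher). The neutrophil count was 6 with DESeq2 and without Jag1Ndr/Ndr replicate 1, 2 without Jag1+/+ replicate 1 or with sex as a covariate, and 0 without Jag1+/+ replicate 2 or 3 and with limma. The macrophage count was 3 with DESeq2 and with the replicate block, and 0 with sex as a covariate and without any 1 library other than Jag1Ndr/Ndr replicate 3. Those of cholangiocytes (95.2 to 138 and 62.4 to 161 CPM, 1 of 7 higher), stellate cells and fibroblasts (954 to 1074 and 743 to 1167 CPM, 1 of 10 lower) and erythroid cells (287 to 434 and 356 to 546 CPM, 2 of 4 higher) overlapped between genotypes. So did endothelial markers, at 514 to 571 and 503 to 538 CPM (1 of 8 higher). B cell markers were at 53.8 to 79.4 and 13.3 to 52.7 CPM (1 of 6 lower). The calls among stellate and B cell markers were lost without any 1 library other than Jag1Ndr/Ndr replicate 2, and of the 2 among erythroid markers none was left without Jag1+/+ replicate 2 or 3 or Jag1Ndr/Ndr replicate 1 or 2, and 1 without Jag1+/+ replicate 1. No listed marker was at 0 in all libraries, and the part of these cell types in the Fmo differences was not tested.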

How the data were processed

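The deposited table gives whole-number read counts per gene entry for each library, which the authors made without normalization, and RPKM values to which the authors applied TMM factors, per the file headers. Dividing the RPKM by the factor gave values in proportion to the reads within 5% for 98.0% of values over 11559 genes. Multiplying did so for 49.0%, so the deposited RPKM hold the factor as a multiplier. The submitters' processing notes name STAR and mm10, with versions and the counter not given in the sources used here. Counts of 24489 entries were filtered with filterByExpr, leaving 13819, scaled by TMM and tested with edgeR 4.0.16 (quasi-likelihood, two-sided, Benjamini-Hochberg, threshold 0.05; R 4.3.3). A further 93 spike-in and eGFP entries with 5 reads were left out. DESeq2 1.42.0, limma 3.58.1 on log2(RPKM + 0.1) and log2(RPKM + 1), library totals, other filters, sex, the replicate number and leaving out each library were alternatives. The test was checked on simulated counts. It recovered 37 of 100 planted 2-fold changes and 89 of 100 planted 4-fold changes, with 10 false calls among 13619 unchanged genes. A 2-fold difference can therefore go undetected with these libraries. Total reads were 12992592 to 59653111, so that a count of 0 allows up to 0.231 to 0.0503 CPM (3 reads, counting error only).

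The members, lists, tests and alternatives were chosen with earlier results of these data known. Named genes are the members, Jag1, the 2 nearest tested neighbours outside the family on each side, up to 4 genes per list with the smallest adjusted p, and the 3 genes with the most similar profile for each member. Cyp2b13, Stat5b, Hnf4a and Tat lie outside this rule and were named after their values were seen. Other entries of the family were not analysed here, and some items that these rules select are not reported here. The coding sequence comparison (GENCODE M21) was chosen after the data were seen, and a planned protein comparison was not run. In RefSeq's promoter table (GRCm38.p6), 3 of the 4 members matched. List genes were matched by symbol, Marc1, Marc2 and Emr1 as older symbols, and Ahsp and Hbb-bt were not used here.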

Additional observations from a re-analysis of the deposited data

How the results depend on the processing

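Counts of genes past the threshold moved most: 653 higher and 401 lower genes became 1137 and 753 with DESeq2, 339 and 79 with limma on RPKM at a pseudocount of 0.1, 166 and 45 at 1, and 347 and 231 with sex as a covariate. Library totals alone gave 210 lower genes. Without 1 library at a time, the counts ran from 155 to 679 higher and from 127 to 532 lower, and were lowest without Jag1+/+ replicate 2. The 18 list genes past the threshold became 35 with DESeq2, 7 and 5 with limma, and 8 to 26 without 1 library. Fmo1 gave -0.996 with library totals and -0.89 and -0.88 with limma, Fmo2 gave -1.34 and Fmo4 -0.22 with limma at a pseudocount of 1, and Fmo5 gave 0.38 and 0.37 with limma. Neighbours in the order of RPKM that did not overlap numbered 3, and 4 with the header factor divided out.

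The log2 fold change of Prrc2c, -0.14, became 0.037 with library totals, 0.0078 and 0.055 with limma, and ran from -0.44 to 0.15 without 1 library, the last without Jag1Ndr/Ndr replicate 1. That of Chd1l, 0.03, became -0.019 with sex as a covariate and ran from -0.0066 to 0.073 without 1 library, below 0 without replicate 3 of either genotype. That of Jag1, -0.28, became 0.012 with limma at a pseudocount of 1. The cause was not tested.

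Same-numbered libraries correlated at 0.045, 0.164 and 0.168, which does not pair them, although each correlated best with its own number. With the replicate block the log2 fold changes were -1.13 for Fmo1, -2.001 for Fmo2, -0.52 for Fmo4 and 0.13 for Fmo5, the standard error of Fmo2 went from 0.36 to 0.16, and the calls were 854 higher and 597 lower. Fmo2 rested on as few as 50 reads in a library and Fmo4 on 83, and 3 libraries a genotype limit every value here.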
